A study of Mus musculus with 30 samples.

Results

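The chemokines and chemokine receptors of the mouse mammary gland were examined in 4 genotypes. They were taken as every gene with a named probe whose symbol began with Ccl, Cxcl, Ccr or Cxcr and a digit, together with Cx3cl1, Cx3cr1 and Xcl1. This rule found 32 of the 12147 named genes, 25 of them ligands and 7 receptors, on 46 probes. No probe carried the name Cxcl9 or Xcl1, so the interferon-linked chemokines were Cxcl10 and Ccl5, and the other 30 genes formed the rest. Of the 32 genes, 30 had enough values in every group to be tested. The receptor Ccr4 and the ligand Cxcl16 did not.

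Inguinal mammary glands came from mice of the 129sv background that were 19 weeks old. The groups were wild-type glands (WT, n = 7), glands of mice that lacked the type I interferon receptor subunit IFNAR1 (IFNAR1-/-, n = 8), glands of mice that carried the Her2/Neu oncogene (Her2/Neu+, n = 6) and glands with both changes (Her2/Neu+/IFNAR1-/-, n = 9). The labels name neither the promoter that drives the oncogene nor how the animals were related, so a p-value here covers only the spread among the sampled glands, which may be partly technical. On each 2-colour array, gland RNA was hybridised against the same universal mouse reference RNA. A value is the log2 ratio of gland over reference, which compares a gene between glands and does not rank one gene against another.

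Chemokines are small secreted proteins that set up gradients along which leukocytes move, and their receptors are seven-pass membrane proteins that signal through heterotrimeric G proteins. Inflammatory ligands are induced by cytokines and infection and draw in neutrophils, monocytes and effector lymphocytes, whereas homeostatic ligands keep lymphocytes and resident cells in place. Type I interferon acts through a receptor of IFNAR1 and IFNAR2 and turns on genes with interferon-stimulated response elements. Cxcl9, Cxcl10 and Cxcl11 share the receptor Cxcr3 on activated T cells and natural killer (NK) cells, and Cxcl10 is a direct target of interferon. In the mammary gland, macrophages and eosinophils, which chemokines recruit, take part in the growth of the ducts.

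The promoters of Cxcl10 and Cxcl1 are shown because the first gene carries the interferon-linked question and the second passed the test below. Each is the 250 bases before the gene start in RefSeq, build GRCm38.p6, read 5′ to 3′ on the gene's strand, at chr5:92348890-92349139 (minus strand) and chr5:90890995-90891244 (plus strand). Capitals mark matches to an interferon-stimulated response element, searched as GAAA, any 2 bases and GAAA again, or to an NF-kB motif. Both were searched on both strands.
Cxcl10: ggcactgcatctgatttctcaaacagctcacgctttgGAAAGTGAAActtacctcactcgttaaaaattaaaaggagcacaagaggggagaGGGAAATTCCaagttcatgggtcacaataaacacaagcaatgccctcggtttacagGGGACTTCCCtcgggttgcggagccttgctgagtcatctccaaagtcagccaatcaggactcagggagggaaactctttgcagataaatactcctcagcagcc
Cxcl1: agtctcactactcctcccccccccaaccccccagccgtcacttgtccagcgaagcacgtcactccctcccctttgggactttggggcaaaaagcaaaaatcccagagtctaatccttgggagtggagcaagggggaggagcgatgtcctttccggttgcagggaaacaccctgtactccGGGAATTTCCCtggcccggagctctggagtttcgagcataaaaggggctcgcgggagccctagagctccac
In the Cxcl10 promoter the response element GAAAGTGAAA began 213 bases before the gene start, and the NF-kB matches GGGAAATTCC and GGGACTTCCC began 159 and 103 bases before it. In the Cxcl1 promoter the matches on the 2 strands overlap, at 71 and 70 bases before the start, and no response element was matched. The response element was matched in 2.98% of 32851 mouse promoter windows of this length and the NF-kB motif in 3.9%. Of the 22 chemokine and receptor genes with a promoter in the RefSeq table, 3 held the response element (Ccl19, Cxcl10 and Cxcl14) and 4 the NF-kB motif (Ccl9, Ccr6, Cxcl1 and Cxcl10). A match describes the letters and does not show that a factor binds there.

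Several features of the arrays bear on these genes. Each array held between 17485 and 20801 values, and with no intensities the signal over background is unknown. Between 2639 and 10385 values per array occurred digit for digit on more than 1 probe of that array and are called repeated values. They ran from 3865 to 8204 per array in WT, from 2639 to 7567 in IFNAR1-/-, from 2712 to 10044 in Her2/Neu+ and from 5804 to 10385 in Her2/Neu+/IFNAR1-/- glands. Of the 32 genes, 11 had a repeated value on at least 15 of the 30 arrays, and 5 had none (Ccl5, Ccl6, Ccl21b, Cx3cl1 and Cxcl11). The arrays also fall into 8 slides and 2 sets of 15 arrays, inferred from the runs of array position numbers and not stated in the labels. Of these slides, 6 hold 1 genotype only and 2 hold a pair of genotypes that no pairwise comparison sets against each other, and each genotype rests on 2 or 3 slides, so slide and genotype cannot be told apart in the pairwise comparisons. Both sets hold all 4 genotypes, but the Her2/Neu+ arrays of the second set are 114 and 119 only. The scale stops at a log2 size of 6, or 64-fold, and 13 genes reached that limit on at least 1 array. Markers of the labelled tissue were present: the mean over 7 adipocyte markers was between 4.79 and 5.62 on every array, and that over 9 luminal epithelial markers was above 0 on all arrays but 1 Her2/Neu+ array, at -0.85. Skeletal muscle markers, with 6 of 12 measured, had a mean between 4.38 and 5.10 on the IFNAR1-/- arrays 41, 42 and 44 and of 4.18 on the Her2/Neu+/IFNAR1-/- array 106, against 1.93 or less on the other arrays. The log2 ratio of Ifnar1 had a median of 0.06 (range -0.47 to 2.32) in WT and of -0.06 (range -1.03 to 1.55) in IFNAR1-/- glands, and since the position of its probes relative to the deleted part is not known here, it does not check the labels.

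The first comparison asked whether chemokine transcripts differed with loss of the type I interferon receptor in glands without the oncogene. None of the 30 tested genes differed between IFNAR1-/- and WT glands (limma, adjusted p under 0.05), beside 3 of 11463 genes tested (0.0262%). At an unadjusted p under 0.05, 2 of the 30 were lower (Cxcl11 and Cxcl10) and 0 were higher, beside 3.99% of all genes lower and 2.88% higher.

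Cxcl10, a ligand for Cxcr3, gave WT log2 ratios from -2.45 to 1.23 with a median of -0.34. In IFNAR1-/- glands they ran from -4.13 to -0.04 with a median of -1.79. The IFNAR1-/- arrays 44, 46 and 47 lay below every WT array, and the other IFNAR1-/- arrays overlapped the WT range. The difference was -1.34 ± 0.55 (SE), a 2.53-fold lower mean, with limma adjusted p = 0.684. It came from 1 of the 2 array sets, since the difference was -0.0033 within the first set and -2.28 within the second. Repeated values made up 21 of the 30 Cxcl10 values, 5 of 7 in WT and 5 of 8 in IFNAR1-/- glands, and how they were made is not stated.

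Cxcl11, the third Cxcr3 ligand, had no repeated values. Its log2 ratio was between 1.01 and 1.65 in WT glands, with a median of 1.26, and between 0.51 and 1.04 in IFNAR1-/- glands, with a median of 0.64. In 7 of 8 IFNAR1-/- glands it was below every WT gland, and array 41 lay just inside the WT range. The difference of -0.57 ± 0.18 had an unadjusted p of 0.00328 and a limma adjusted p of 0.552. Its 2 probes correlated weakly over the 30 arrays (r = 0.14, a description), and each had a lower mean in IFNAR1-/- than in WT glands, at 0.68 ± 0.13 against 1.51 ± 0.51 (SD, n = 8 and 7) for the first and 0.75 ± 0.43 against 1.07 ± 0.20 for the second.

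Ccl5, which attracts T cells and other leukocytes and is itself made by activated T and NK cells, spread widely. Its log2 ratio ran from -0.84 to 2.49 in WT glands (median 1.74) and from -3.40 to 1.88 in IFNAR1-/- glands (median -0.43). The 2 ranges overlapped, with 3 IFNAR1-/- glands below every WT gland. The difference was -1.63 ± 1.04 (limma adjusted p = 0.790).

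The other genes with the smallest p-values in this comparison were all short of the threshold. The neutrophil attractant Cxcl5 differed by -1.34 ± 0.74 (adjusted p = 0.766), with 4 of 8 IFNAR1-/- glands below every WT gland. The differences with a positive sign were led by the eosinophil attractant Ccl24 (0.98 ± 0.70, adjusted p = 0.810), the fractalkine receptor Cx3cr1 of macrophages (1.26 ± 1.04, adjusted p = 0.838) and its ligand Cx3cl1 (0.66 ± 0.61, adjusted p = 0.862). Cx3cr1 had a value on 4 of 7 WT arrays, and 3 of these were repeated values. Its difference was 0.83 without WT array 54 and 2.00 without WT array 60. Of the 30 tested genes, 19 had a negative and 11 a positive difference, with a median of -0.18 beside -0.08 over all genes tested.

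**Figure D1:**
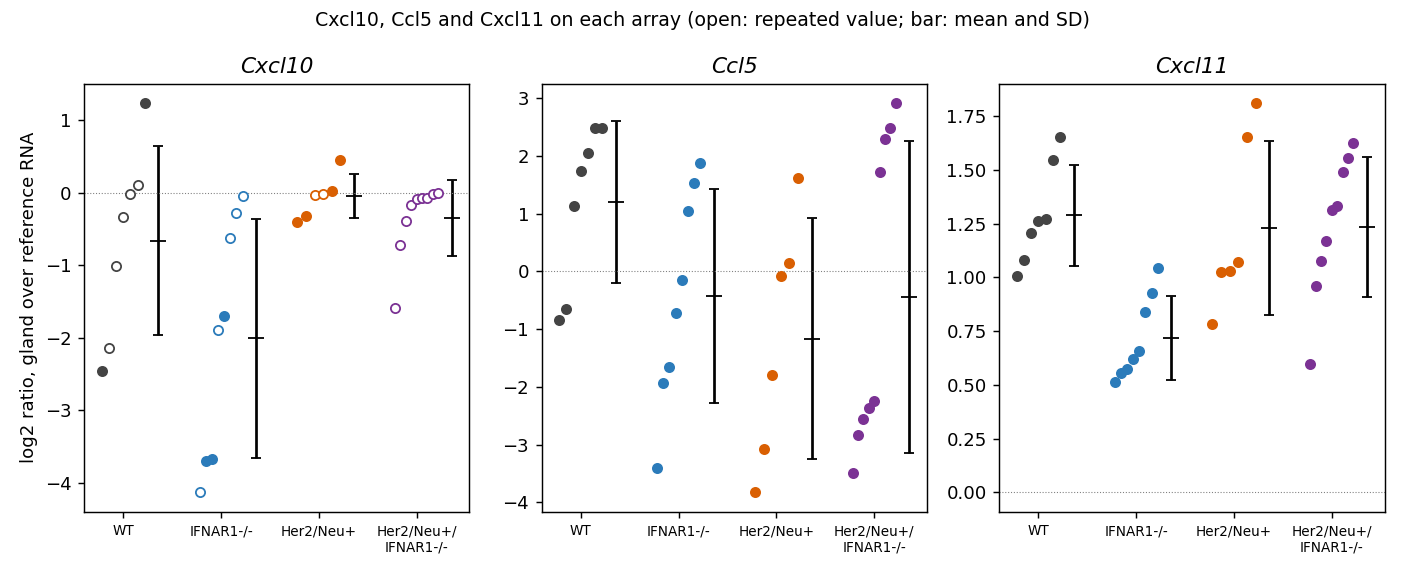
Log2 ratio of gland over reference RNA (vertical axis) of Cxcl10, Ccl5 and Cxcl11 on each array of the 4 groups. Points are arrays, open points are repeated values, and bars give the mean and SD. Cxcl10 runs from -0.41 to 0.45 in Her2/Neu+ glands, with 2 of 6 points open. In Her2/Neu+/IFNAR1-/- glands it runs from -1.59 to -0.01, with all 9 points open. Cxcl10 spreads wider in WT and IFNAR1-/- glands, where 5 of 7 and 5 of 8 points are open. Ccl5 spans more than 5 log2 units in 3 groups, and 7 of 8 IFNAR1-/- points of Cxcl11 lie below every WT point.

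The second comparison asked which of these genes differed with the oncogene in glands that kept the receptor. None of the 30 passed the test between Her2/Neu+ and WT glands (limma, adjusted p under 0.05), beside 0.131% of all genes tested. At an unadjusted p under 0.05, 4 were higher (Ccl7, Cxcl1, Ccl3 and Ccl19) and 2 lower (Ccl11 and Ccl5), beside 5.37% of all genes higher and 6.69% lower. A second Ccl19 probe, dropped for blank values, had a lower mean in Her2/Neu+ than in WT glands. Its means were 3.67 ± 3.23 (SD, n = 3) and 4.62 ± 1.63 (SD, n = 5). This comparison shares the WT arrays with the first.

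Ccl7 is a monocyte attractant that acts through Ccr2. Its log2 ratio ran from -4.57 to -1.59 in WT glands (median -3.23) and from -2.29 to -0.13 in Her2/Neu+ glands (median -1.56). All 6 Her2/Neu+ glands were above the WT mean and 3 were above every WT gland. Those 3, arrays 113, 114 and 119, held repeated values, and the other Her2/Neu+ arrays lay inside the WT range. The difference was 1.86 ± 0.59, or 3.63-fold, with limma adjusted p = 0.177. It was 0.98 within the first array set and 3.43 within the second. In the second set the Her2/Neu+ arrays were 114 and 119 only, both with repeated values of Ccl7. Cxcl1, a neutrophil attractant that acts through Cxcr2, differed by 1.27 ± 0.55 (adjusted p = 0.334), and again 3 of 6 Her2/Neu+ glands lay above every WT gland. Of these, arrays 113 and 114 held repeated values and array 119 did not. Ccl3, a macrophage inflammatory protein, differed by 1.05 ± 0.46 (adjusted p = 0.339).

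Ccl11, or eotaxin, attracts eosinophils. Of the 6 WT arrays with a value, 4 stood at the scale's upper limit, and of the 4 Her2/Neu+ arrays with a value none did. In the latter it ran from -0.00 to 4.92 with a median of 4.09. Its difference of -2.02 ± 0.81 (limma adjusted p = 0.298) is bounded by that limit on the WT side. Without the Her2/Neu+ array 113, whose value near 0 is a repeated value, it was -0.92. Ccl8, a neighbour of Ccl11 and Ccl7 on chromosome 11, differed by -1.63 ± 0.82 (adjusted p = 0.437) with 3 WT arrays at the limit. Its median was 5.71 in Her2/Neu+ and 5.92 in WT glands. The difference of Ccl8 was -1.01 without the Her2/Neu+ array 113 and -0.92 without the Her2/Neu+ array 115.

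Ccl5 in Her2/Neu+ glands ran from -3.83 to 1.62 with a median of -0.95. Of the 6 glands, 3 lay below every WT gland and the other 3 inside the WT range. The difference was -2.37 ± 1.11 (limma adjusted p = 0.392). Cxcl10 ran only from -0.41 to 0.45 in Her2/Neu+ glands, within the WT range, and differed by 0.61 ± 0.59 (adjusted p = 0.736). The 2 interferon-linked chemokines thus had differences of opposite sign in this comparison. In the same glands the 25 measured interferon-stimulated genes of a 30-gene list all had a positive difference, with a median of 1.36, and 2 of them passed the test, the antiviral genes Oasl2 (3.30 ± 0.60, limma adjusted p = 0.0130) and Oas1a (3.24 ± 0.65, limma adjusted p = 0.0268). The 28 other chemokines and receptors had a median difference of -0.06, beside -0.02 over all genes tested.

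The third comparison asked which of these genes differed with receptor loss when the oncogene was present. None of the 30 passed between Her2/Neu+/IFNAR1-/- and Her2/Neu+ glands (limma, adjusted p under 0.05), beside 0.0785% of all genes tested. At an unadjusted p under 0.05, 4 were higher and 0 lower, beside 6.99% and 4.18% of all genes.

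The smallest p-value belonged to Ccl11, which was at 4.24 to 6.0 in the 6 Her2/Neu+/IFNAR1-/- glands with a value (median 5.87). Of these, 5 lay above every Her2/Neu+ gland with a value. The difference was 2.21 ± 0.81 (limma adjusted p = 0.326), with 3 arrays at the limit, and 1.12 without the Her2/Neu+ array 113. Ccl24, which like Ccl11 acts on the eosinophil receptor Ccr3, differed by 1.59 ± 0.71 (adjusted p = 0.408), but by 3.25 within the first array set and by -0.57 within the second. The Her2/Neu+ arrays of the second set, 114 and 119, both held repeated values of Ccl24, as did arrays 113 and 115 of the first. Without the Her2/Neu+ array 120, where Ccl24 was at -4.84, the difference over both sets was 0.98. Ccl27a, a ligand made by keratinocytes, differed by 0.95 ± 0.37 (adjusted p = 0.342), and by 0.26 without the Her2/Neu+/IFNAR1-/- array 103. All of the 6 Her2/Neu+ values and the 8 Her2/Neu+/IFNAR1-/- values of Ccl27a included a repeated value, and its probes correlated at r = -0.27 to 0.02, so its level is not settled. Ccl27a also has near-identical copies in the mouse genome that probes may not tell apart. Cxcl14, an epithelial ligand, differed by 1.20 ± 0.55 (adjusted p = 0.425). Its Her2/Neu+ array 114 held a repeated value of -0.04 while the other 5 lay between 3.81 and 5.14, and without that array the difference was 0.46.

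The largest negative difference with a small p belonged to Ccl19, which guides T cells and dendritic cells through Ccr7. It differed by -1.41 ± 0.85 (limma adjusted p = 0.519), and by -0.61 without the Her2/Neu+ array 114. Ccl19 was also the gene whose probes agreed least. Its tested probe had a mean of 0.21 ± 0.62 (SD, n = 7) and its second probe 4.62 ± 1.63 (SD, n = 5) in WT glands, and over the 14 arrays with both values they correlated at r = -0.46. The next negative differences were those of Ccl12 (-1.12 ± 1.16, adjusted p = 0.707) and Ccl2 (-0.25 ± 0.27, adjusted p = 0.723), both monocyte attractants that act on Ccr2. That of Ccl12 was -0.15 without the Her2/Neu+ array 119. Cxcl10 differed by -0.30 ± 0.56 (adjusted p = 0.851) and Ccl5 by 0.72 ± 1.06 (adjusted p = 0.802). The interferon-stimulated genes had a median of -0.79, with 23 of 25 negative and 0 past the adjusted threshold (5 lower at an unadjusted p under 0.05).

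The fourth comparison set the oncogene against its absence in glands without the receptor, and it was the one in which chemokines passed the test. Ccl7 and Cxcl1 rose in Her2/Neu+/IFNAR1-/- relative to IFNAR1-/- glands, by 4.59-fold and 4.02-fold. These are 2 of 30 genes (6.67%), beside 1.31% of all genes tested called in either direction and 0.942% called higher. At an unadjusted p under 0.05, 8 of the 30 were higher (26.7%) and 0 lower, beside 13.5% of all genes higher and 4.96% lower. These are whole glands, in which fewer cells of a type and less RNA per cell cannot be told apart.

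The log2 ratio of Ccl7 ran from -5.59 to -1.99 in IFNAR1-/- glands (median -3.15) and from -3.10 to -0.40 in Her2/Neu+/IFNAR1-/- glands (median -1.47). Of the 9 glands with both changes, 6 lay above every IFNAR1-/- gland and all 9 above their mean, so the groups overlapped. The difference was 2.20 ± 0.52 (limma adjusted p = 0.0331). Ccl7 was below the reference RNA on all 30 arrays.

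The log2 ratio of Cxcl1 ran from -6.0 to -2.29 in IFNAR1-/- glands (median -4.33) and from -4.02 to -1.16 in Her2/Neu+/IFNAR1-/- glands (median -2.35). Here 4 of 9 glands lay above every IFNAR1-/- gland and all 9 above their mean. The difference was 2.01 ± 0.48 (limma adjusted p = 0.0353), with 1 IFNAR1-/- array at the lower limit of the scale. The promoter printed above for Cxcl1 is that of this gene, while no RefSeq promoter for Ccl7 was in the table used.

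Neighbouring results had the same sign and did not pass. Ccl4, a macrophage inflammatory protein and neighbour of Ccl3, differed by 2.15 ± 0.60 (limma adjusted p = 0.0659), and 5 of 9 glands with both changes lay above every IFNAR1-/- gland. Cxcl5, which shares the receptor Cxcr2 with Cxcl1, differed by 2.40 ± 0.70 (adjusted p = 0.0736), with 7 of 9 above. Cxcl10 differed by 1.65 ± 0.52 (adjusted p = 0.0895), Cxcl11 by 0.52 ± 0.17 (adjusted p = 0.101), Ccl3 by 1.12 ± 0.40 (adjusted p = 0.132) and the gut-homing ligand Ccl25 by 1.46 ± 0.54 (adjusted p = 0.145). Ccl5 did not share this sign and differed by -0.03 ± 0.97 (adjusted p = 0.993). All 9 Her2/Neu+/IFNAR1-/- values of Ccl4, Cxcl10 and Ccl25 were repeated values, against 1, 5 and 4 of 8 in IFNAR1-/- glands. For Cxcl5, 5 of 9 and 2 of 8 were repeated values. The negative differences with the smallest p-values were those of Ccl2 (-0.29 ± 0.25, adjusted p = 0.556), the lymph node homing receptor Ccr7 (-1.10 ± 1.09, adjusted p = 0.626) and Ccl9 (-0.24 ± 0.31, adjusted p = 0.722). Ccr7 had a median of 6.0, the limit of the scale, in both groups. Its difference was -0.29 without the Her2/Neu+/IFNAR1-/- array 105 and -0.29 without array 108, each of which held a repeated value near 0. Of the 25 interferon-stimulated genes, 7 rose in this comparison (Oas1a, Oasl2, Rtp4, Usp18, Oas2, Ifit3 and Stat2), and the median was 1.16.

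**Figure D2:**
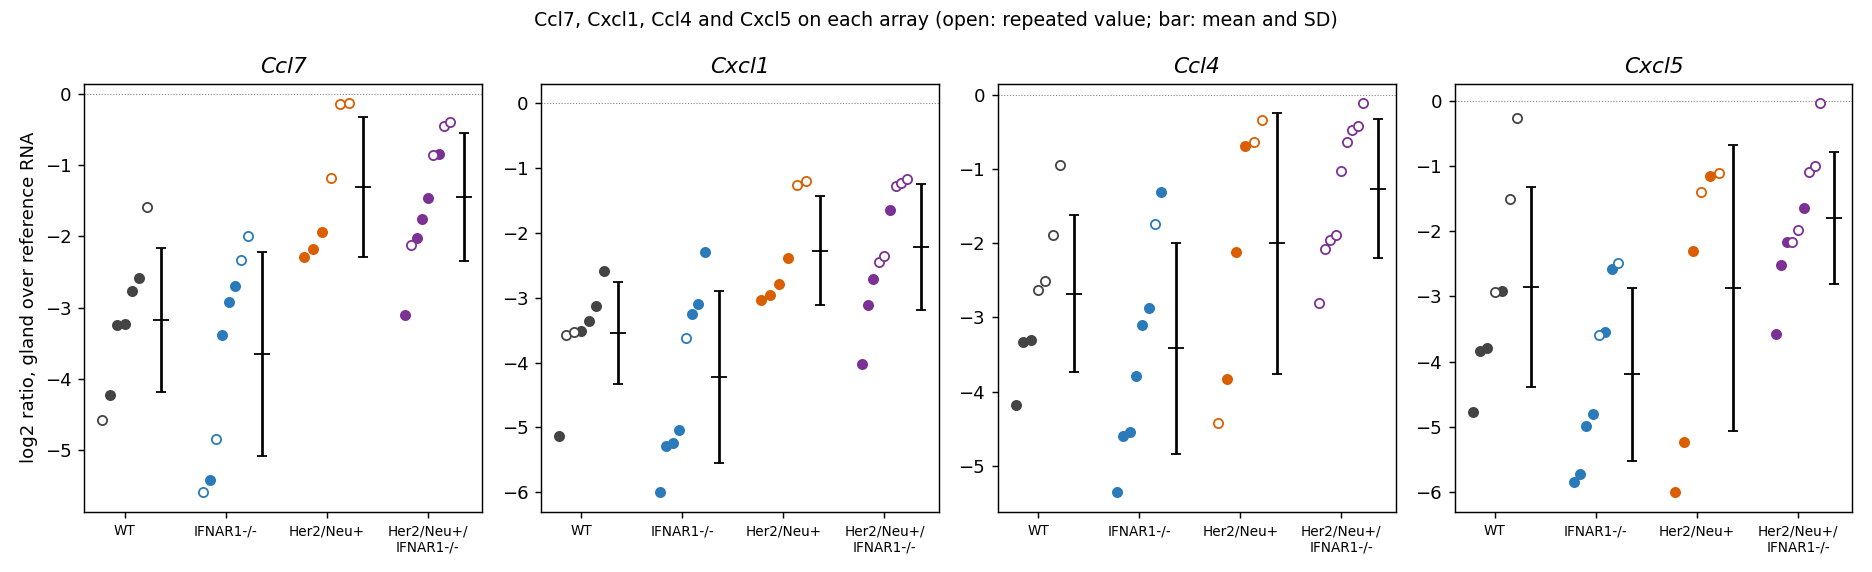
Log2 ratio of gland over reference RNA (vertical axis) of Ccl7, Cxcl1, Ccl4 and Cxcl5 on each array of the 4 groups. Points are arrays, open points are repeated values, and bars give the mean and SD. The IFNAR1-/- points reach lowest for Ccl7, Cxcl1 and Ccl4, and the Her2/Neu+/IFNAR1-/- points are mostly above them while the ranges overlap.

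Both rises moved with the number of repeated values on an array. The Her2/Neu+/IFNAR1-/- array 108 had the most repeated values (10385) and Ccl7 at -0.40, and array 102 had the fewest of its group (5804) and Ccl7 at -3.10. The IFNAR1-/- array 44 had 2639 and Ccl7 at -5.59, while array 41 had 7567 and Ccl7 at -2.33. The Her2/Neu+ arrays 120 and 118, with 2712 and 3753, went another way, with Ccl7 at -1.94 and -2.29. With the number of repeated values as a covariate, Ccl7 differed by 0.94 ± 0.41 (limma adjusted p = 0.287) and Cxcl1 by 0.78 ± 0.35 (adjusted p = 0.316). When the repeated values were left blank, Ccl7 differed by 1.77 ± 0.52 (adjusted p = 0.0659), and Cxcl1 had too few values left. The calls also ended without any 1 of the IFNAR1-/- arrays 44, 46 and 50 or the Her2/Neu+/IFNAR1-/- arrays 105, 108, 109 and 110, and that of Cxcl1 also without IFNAR1-/- 47. In these 8 fits the share of all genes called was also lower, between 0.333% and 0.55%. Without IFNAR1-/- array 42, 5 of the 30 passed (Ccl4, Ccl7, Cxcl1, Cxcl10 and Cxcl5), and 2.84% of all genes did. Without the 3 IFNAR1-/- arrays that are high in muscle markers, Ccl7 differed by 2.41 ± 0.54 (adjusted p = 0.0280) and Cxcl1 by 2.27 ± 0.48 (adjusted p = 0.0194).

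With the inferred slide as a random block, Ccl7 differed by 2.14 (limma adjusted p = 0.130) and Cxcl1 by 1.90 (adjusted p = 0.152). Within the first set the differences were 2.28 and 1.85 and within the second 2.09 and 2.02, and neither set alone passed the test.

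**Figure D3:**
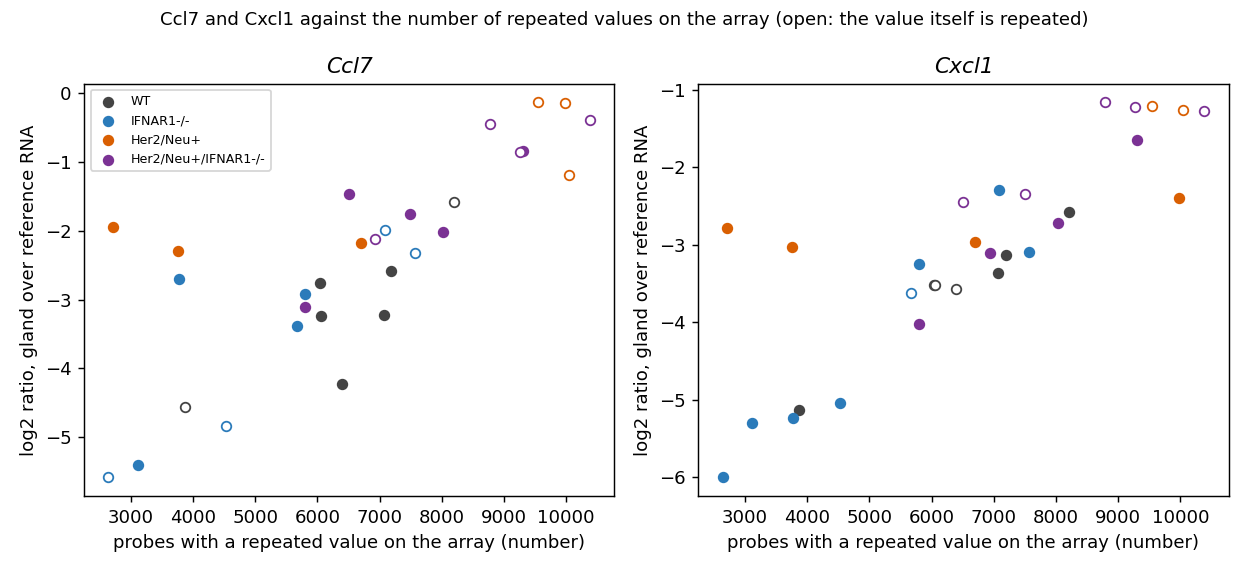
Log2 ratio of Ccl7 and Cxcl1 (vertical axes) against the number of probes with a repeated value on the same array (horizontal axis), coloured by group. Open points are values that are themselves repeated. Arrays with more repeated values mostly have ratios nearer 0, apart from Her2/Neu+ arrays with 2712 and 3753 repeated values.

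The interaction compares the signed difference made by receptor loss between glands with and without the oncogene. It is positive where that difference is more positive, or less negative, with the oncogene, so a positive value need not mean a larger difference. None of the 30 passed (limma, adjusted p under 0.05), beside 0.0174% of all genes. At an unadjusted p under 0.05, 3 were higher and 0 lower, beside 6.86% and 2.77% of all genes. The smallest p-values were those of Cxcl5 (2.40 ± 1.06) and Cxcl11 (0.58 ± 0.26), each with limma adjusted p = 0.501, and Ccl11 (2.21 ± 1.05, adjusted p = 0.517, and 1.12 without the Her2/Neu+ array 113). The first Cxcl11 probe had means of 1.07 ± 0.84 (SD, n = 6) in Her2/Neu+ and 1.37 ± 0.41 (SD, n = 9) in Her2/Neu+/IFNAR1-/- glands. Those of the second were 1.39 ± 0.13 and 1.09 ± 0.39. On the second probe the mean was thus lower with receptor loss whether or not the oncogene was present. On the first it was lower only without the oncogene. Ccl19 by its tested probe (-1.72 ± 1.18, adjusted p = 0.607), Ccl12 (-1.92 ± 1.58, adjusted p = 0.665) and Cx3cl1 (-0.58 ± 0.87, adjusted p = 0.828) had negative estimates. Cxcl10 had 1.04 ± 0.79 (adjusted p = 0.638) and Ccl5 2.34 ± 1.48 (adjusted p = 0.581). Of the 30 estimates, 26 were positive, with a median of 0.59 beside 0.18 over all genes tested, of which 60.5% were positive. Under quantile normalization 22 were positive, and the medians were 0.32 and 0.05.

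**Figure D4:**
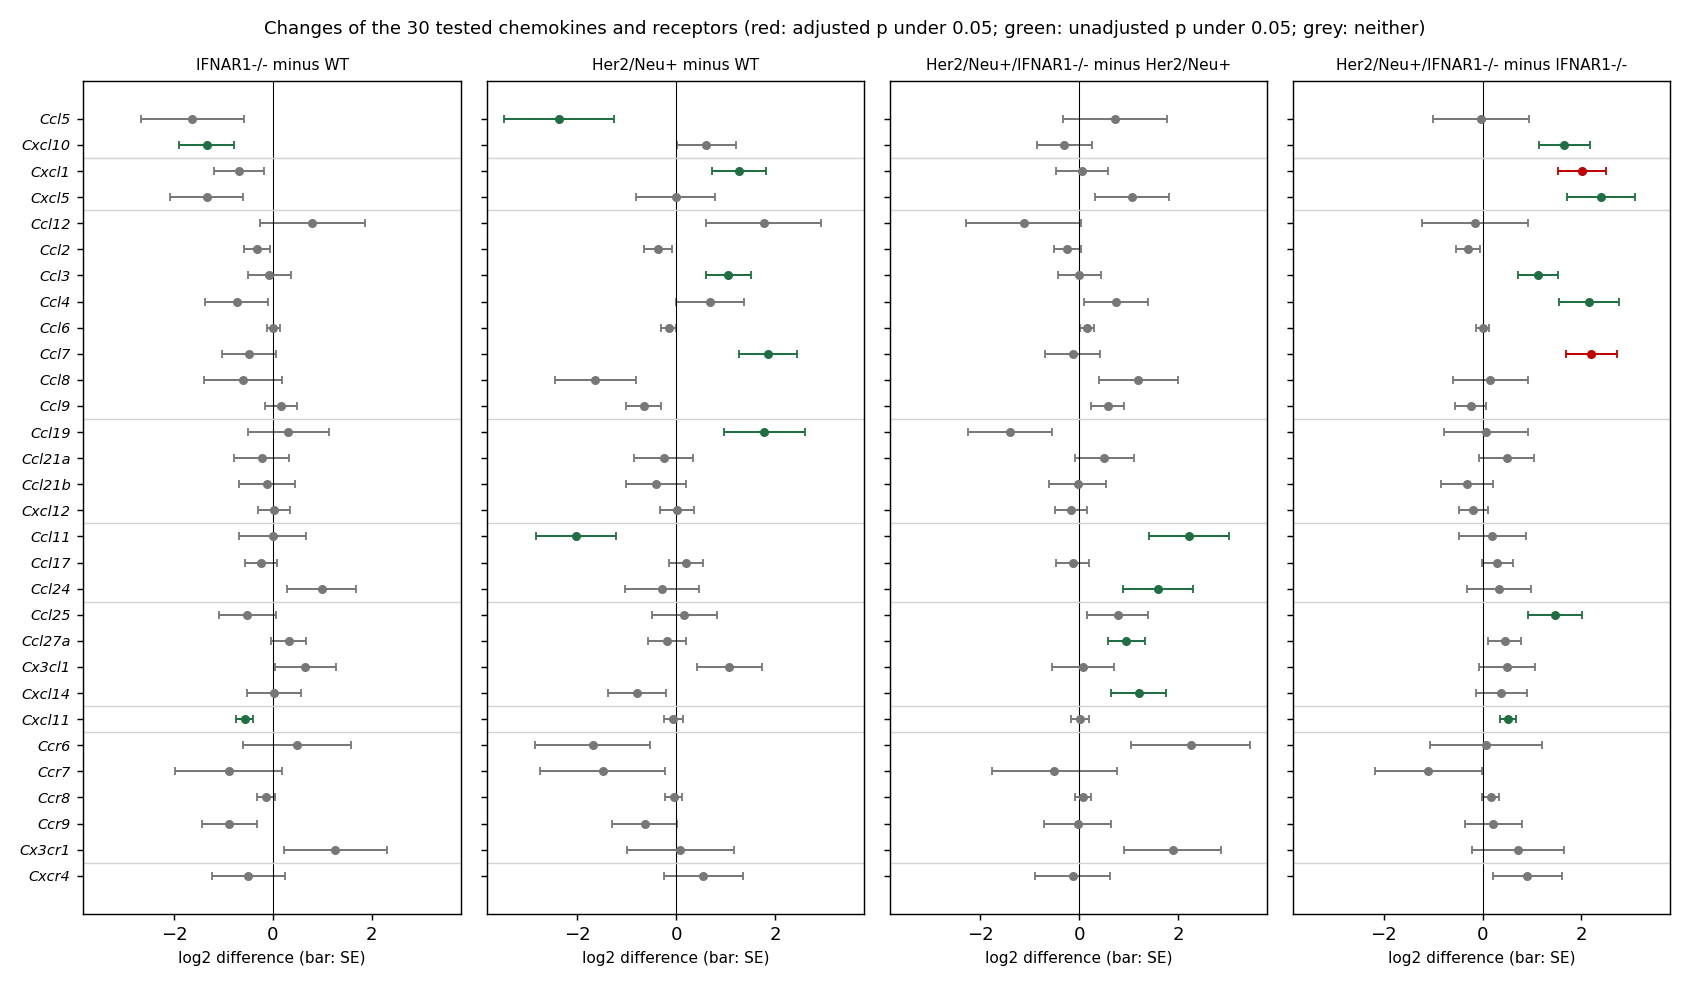
Log2 difference with its SE (horizontal axis) of the 30 tested genes in the 4 pairwise comparisons, ordered by role with lines between the role groups. Red marks an adjusted p under 0.05, green an unadjusted p under 0.05 and grey neither. The only red points are Ccl7 and Cxcl1 in the comparison of Her2/Neu+/IFNAR1-/- with IFNAR1-/- glands.

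Ccl5 was set beside the lymphocyte markers of each array. A list of 20 T and NK cell markers had 10 measured members, of which 0 passed the test in any comparison. At an unadjusted p under 0.05, 1 was lower in IFNAR1-/- than in WT glands, beside 3.99% of all genes. In Her2/Neu+/IFNAR1-/- against IFNAR1-/- glands 1 was higher, beside 13.5%. The mean of the 10 markers per array ran from 0.43 to 2.33 in WT, from 0.17 to 2.53 in IFNAR1-/-, from 0.11 to 2.24 in Her2/Neu+ and from -0.01 to 2.69 in Her2/Neu+/IFNAR1-/- glands. The Her2/Neu+/IFNAR1-/- array 104 was highest for both, with a marker mean of 2.69 and Ccl5 at 2.91, and array 103 had the lowest marker mean, with Ccl5 at -2.36. The 11 arrays with Ccl5 at -1.66 or lower had marker means of 0.89 or lower, and the 10 arrays with a marker mean of 2.02 or higher had Ccl5 from -0.09 to 2.91. In Her2/Neu+ glands, array 115 was lowest for both, with a marker mean of 0.11 and Ccl5 at -3.83. The order did not hold at the upper end there, where arrays 114 and 120 had the highest marker means (2.24 and 2.02) and Ccl5 at 0.14 and -0.09, below array 118 (marker mean 1.71, Ccl5 at 1.62). The 9 Her2/Neu+/IFNAR1-/- glands had Ccl5 either between 1.73 and 2.91 (4 arrays) or between -3.49 and -2.24 (5 arrays), with none in between. With the marker mean as a covariate, the difference of Ccl5 between Her2/Neu+ and WT glands was -1.47 ± 0.46 (limma adjusted p = 0.127), and that between IFNAR1-/- and WT glands was -0.54 ± 0.43 (adjusted p = 0.778). With the mean of the B cell markers as the covariate instead, these differences were -2.71 ± 0.83 (adjusted p = 0.157) and -0.47 ± 0.80 (adjusted p = 0.912), so the covariates moved the first of them in opposite ways.

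**Figure D5:**
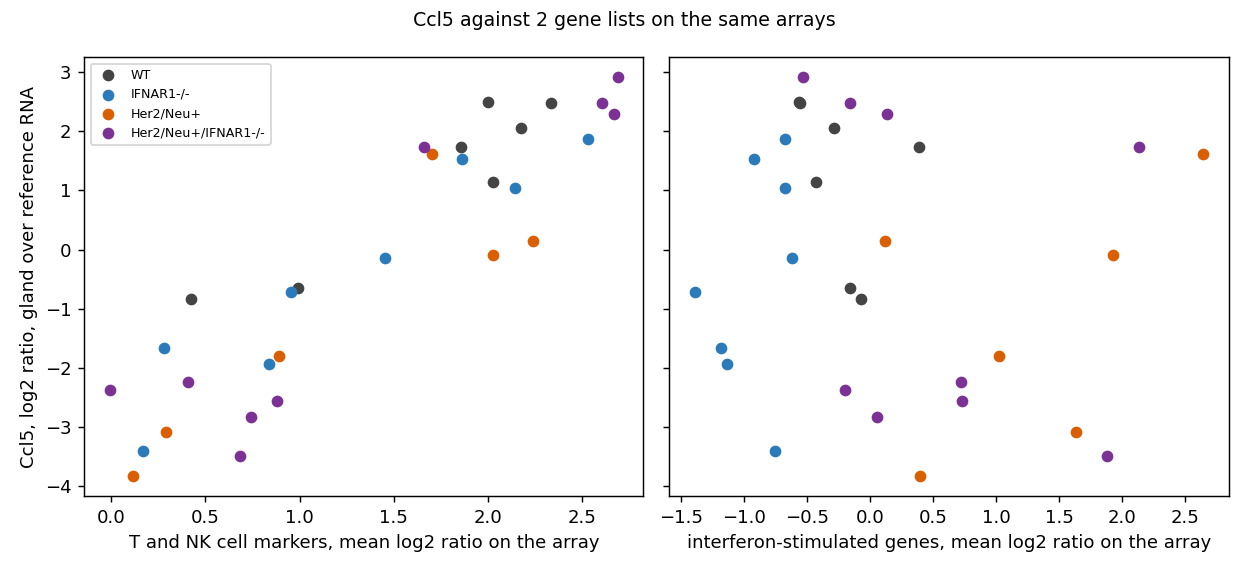
Log2 ratio of Ccl5 on each array (vertical axes) against the mean log2 ratio of 10 T and NK cell markers (left) and of 25 interferon-stimulated genes (right) on the same array, coloured by group. The 11 arrays with Ccl5 at -1.66 or lower have marker means of 0.89 or lower, the Her2/Neu+ arrays 114 and 120 lie below other arrays of like marker mean, and Ccl5 spans its range at low and at high means of the interferon-stimulated genes.

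The remaining ligands are described by role. Among the monocyte and macrophage ligands, Ccl6 was at the upper limit on 28 of 30 arrays, so its size and any difference between groups were not measured, and Ccl8 was above the reference on every array with a value. Ccl3 was below the reference on all 30 arrays, from -4.15 to -0.46. Ccl2, with 10 probes, was below the reference throughout. Its mean was -2.65 ± 0.21 (SD, n = 7) in WT glands and -2.97 ± 0.60 (SD, n = 8) where IFNAR1 was missing. With the oncogene it was -3.02 ± 0.51 (SD, n = 6) with the receptor and -3.27 ± 0.54 (SD, n = 9) without it. Ccl2 and Ccl7 lie next to each other on chromosome 11 and act on the same receptor. In the fourth comparison their values were -0.29 ± 0.25 and 2.20 ± 0.52, and the difference between the 2 genes was not tested. Ccl9 had group means from 0.24 ± 0.48 (SD, n = 6) in Her2/Neu+ to 1.06 ± 0.44 (n = 8) in IFNAR1-/- glands. Ccl12 was near 0 on most arrays, with medians between -0.02 and 0.70, but it reached 5.00 on 1 IFNAR1-/- array and 6.0 on 1 array of each oncogene group.

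Among the lymphoid homing ligands, Ccl21a, the Ccr7 ligand of lymphatic vessels and lymph nodes, had group medians between 4.31 and 4.59, and Ccl21b had medians between 1.72 and 2.37. These genes have near-identical copies, so their probes may read each other's transcripts. Cxcl12, the stromal ligand of Cxcr4, was below the reference on all 30 arrays, with group means between -1.49 ± 0.55 (SD, n = 9) and -1.31 ± 0.86 (n = 8). Differences of Ccl21a, Ccl21b and Cxcl12 did not pass in any comparison, and their estimates were between -0.41 and 0.51 in the 4 pairwise ones.

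Of the type 2 ligands, Ccl11 was at the limit on 12 of its 24 values. Ccl24 had group means from -1.77 ± 1.86 (SD, n = 6), in Her2/Neu+ glands, up to -0.18 ± 1.48 (SD, n = 9), in Her2/Neu+/IFNAR1-/- glands. Ccl17, which attracts type 2 T cells, had a repeated value on most arrays and medians between -0.10 and -0.01. Of the epithelial and tissue ligands, Cxcl14 had group means between 3.67 ± 1.88 (SD, n = 6) and 4.87 ± 0.86 (n = 9), and Ccl25 was below the reference on all 29 arrays with a value. Cx3cl1, which is anchored in the membrane, had medians of -1.15 in WT, -0.39 in IFNAR1-/-, 0.39 in Her2/Neu+ and -0.00 in Her2/Neu+/IFNAR1-/- glands, with overlapping ranges. Cxcl16, which was not tested, had a value on only 2 WT arrays.

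The receptors gave less information than the ligands. Ccr7, which brings lymphocytes and dendritic cells to lymph nodes, was at the upper limit on 16 arrays. Cx3cr1 had group medians between 3.30 in WT and 6.0 in Her2/Neu+ glands, with 8 arrays at the limit. Ccr6, a receptor of B cells and helper T cells, had medians between 3.51 in Her2/Neu+ and 5.91 in Her2/Neu+/IFNAR1-/- glands. The skin-homing and type 2 receptors Ccr4 and Ccr8 and the gut-homing receptor Ccr9 had repeated values nearly throughout, with medians between -0.29 and -0.00. Cxcr4, the receptor of Cxcl12, had repeated values on 23 of 30 arrays and medians between -0.08 and -0.01. Its highest value was 4.49 in Her2/Neu+ glands and 6.0, on 1 array, in Her2/Neu+/IFNAR1-/- glands. The 6 tested receptors had 0 calls in any comparison, which does not set them apart, since at most 1.31% of all genes were called. No probe was named for Cxcr3, the receptor of the interferon-linked CXC ligands.

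Genes that work beside the chemokines also gave few differences, as did all genes tested. Between 0.0174% and 1.31% of all genes passed per contrast, so 0 calls do not set a short list apart. Of 34 listed genes of chemokine receptor signalling, 25 were measured and 0 passed in any contrast. At an unadjusted p under 0.05 the counts were 1 lower and 0 higher in IFNAR1-/- against WT, 1 of each in Her2/Neu+ against WT and in Her2/Neu+/IFNAR1-/- against Her2/Neu+, and 3 higher and 0 lower in Her2/Neu+/IFNAR1-/- against IFNAR1-/- glands. Of all genes, 3.99%, 6.69%, 4.18% and 4.96% were lower and 2.88%, 5.37%, 6.99% and 13.5% higher in these 4 comparisons. The median differences were -0.16, -0.23, 0.36 and 0.33 in that order, beside -0.08, -0.02, 0.11 and 0.15 over all genes tested. Of 11 atypical receptors and other genes of the chemokine family, 4 were measured and 0 passed. Among them Pf4, the platelet chemokine, ran from -1.43 to -0.81 in WT and from -4.15 to -1.11 in Her2/Neu+ glands, a difference of -1.52 ± 0.40 (limma adjusted p = 0.113), and it was singled out after its values were seen.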

How the data were processed

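Gland RNA (Cy5) and Stratagene universal mouse reference RNA (Cy3) were labelled with Agilent's Low Input Quick Amp kit, per the labels. The authors deposited 1 log ratio per probe and array for 20896 probes. It was read as log2, because its largest size is exactly 6.0 (64-fold), and the deposited log2 values were used without further scaling. Background correction, normalization and the rule for blank values are not given in the sources used here. Platform symbols named 17376 probes, 3520 had none, and 0 had several.

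Probes blank on more than 50% of the arrays in any group were dropped. The remaining probes were averaged per gene, leaving 11463 genes. Group differences come from limma 3.58.1 under R 4.3.3 (lmFit and eBayes, 1 fit over 30 arrays, two-sided, Benjamini-Hochberg over all genes tested, threshold 0.05). The code was tested on simulated data. Values by group were given for Cxcl10, Ccl5, genes past the threshold, the 3 smallest p-values of each sign per comparison, 1 gene at each end of the mean ratios in each role (a choice of what to name, not a ranking), and the gene whose probes agreed least. The alternatives changed scaling, filter, probe rule, samples, blocks and covariates. The covariates for the number of repeated values and for T and NK cell markers were chosen after seeing the data. The genes and lists were chosen with earlier results of these data known.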

Additional observations from a re-analysis of the deposited data

Results flagged for a closer look

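In 16 of 76 groups examined, over the 19 genes named by comparison, 1 array stood far from the rest of its group, with a gap to its neighbour that was large against the group's whole range. Chance flags about 1 in 20 groups. Most of these groups hold values gathered near 0 or at the limit of the scale, where a small or an ordinary value stands apart.

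Array 60 of WT was the far array for Ccl12 (2.04, next -0.01), Ccl19 (1.61, next -0.01) and Cxcl1 (-5.13, next -3.57). In IFNAR1-/- glands, array 41 was far for Ccl12 (5.00, next 1.67) and Ccl2 (-4.32, next -3.25), array 39 for Ccl19 (3.11, next 0.19), array 42 for Cx3cl1 (-3.19, next -1.19) and array 50 for Cx3cr1 (2.64, next 4.90).

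In Her2/Neu+ glands, array 120 was far for Ccl27a (-1.02, next -0.22) and array 119 for Ccr7 (-0.02, with the other 3 arrays at 6.0). In Her2/Neu+/IFNAR1-/- glands, array 106 was far for Ccl12 (6.0, next -0.01) and Cxcl10 (-1.59, next -0.73), array 109 for Ccl24 (3.23, next 0.55) and Ccl8 (1.07, next 5.83), and array 110 for Cx3cr1 (4.95, next 5.69). Ccr7 on WT array 53 was flagged at 5.88 only because the other WT values were all at 6.0.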

How the results depend on the processing

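All values are log2 differences with limma adjusted p-values. The counts of 0 chemokines and receptors past the threshold held under every alternative run for IFNAR1-/- minus WT. In array set 2 alone 1 gene passed (Ccl19) in the interaction, in Her2/Neu+/IFNAR1-/- minus Her2/Neu+ glands, and in Her2/Neu+ minus WT, where that set called 4.22%, 7.89% and 6.51% of all genes. The Her2/Neu+ arrays of that set are 114 and 119 only. With the number of repeated values as a covariate 1 passed (Ccl11, 2.89, adjusted p = 0.0480) in Her2/Neu+/IFNAR1-/- minus Her2/Neu+, beside 0.576% of all genes.

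In Her2/Neu+/IFNAR1-/- minus IFNAR1-/-, the count of 2 went to 0 in 7 settings. Ccl7 and Cxcl1 were at 2.20 (adjusted p = 0.0692) and 2.01 (0.0751) in a fit of the groups compared alone, 2.06 (0.0717) and 1.98 (0.0672) with the array position number, 2.14 (0.130) and 1.90 (0.152) with the slide as a random block, 2.28 (0.466) and 1.85 (0.582) in set 1, 2.09 (0.157) and 2.02 (0.141) in set 2, and 0.94 (0.287) and 0.78 (0.316) with the number of repeated values. With repeated values missing, Ccl7 was at 1.77 (0.0659) and Cxcl1 could not be fitted. With values at the limit missing, Cxcl1 was at 1.76 (0.0510). The sets and position settings have fewer samples or more terms, and the cause of the other losses was not tested. Both calls held under quantile normalization, centred arrays, the array set as a block and the marker covariates.

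Leaving out 1 array at a time, the count ran from 0 to 5, Ccl7 from 1.92 to 2.44, Cxcl1 from 1.76 to 2.29, Cxcl10 from 1.35 to 1.93 and Ccl5 from -0.45 to 0.35. In the same comparison Ccl5 (-0.03) changed sign with array weights (0.70), position number (0.13), set 1 (0.85), without IFNAR1-/- 41, 42 and 44 (0.43) and with the number of repeated values (1.03), and Ccl2 with the last (0.0792). Set 2 alone turned the sign of Ccl8 in Her2/Neu+ minus WT (0.18), of Ccl2 (0.41) and Ccl24 (-0.57) for Her2/Neu+/IFNAR1-/- minus Her2/Neu+ glands and of Cx3cl1 in the interaction (1.06), and set 1 that of Cxcl10 in Her2/Neu+/IFNAR1-/- minus Her2/Neu+ (0.0032). None of these passed the test in either direction.

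Quantile normalization moved the median of all genes in Her2/Neu+/IFNAR1-/- minus IFNAR1-/- from 0.15 to 0.04 and in the interaction from 0.18 to 0.05. No paired analysis was possible because the sample numbers in the labels are not shared between groups. No intensities were used, so weak signals cannot be told from measured ones, and 4 genes at the limit on 10 or more arrays (Ccl6, Ccr7, Ccl11 and Ccl8) have no measured size there.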
